A study of Homo sapiens with 6 samples.

Results

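The genes described here are 49 components of Wnt signalling that act at the cell surface or on its transcriptional output, out of 60546 gene identifiers in the deposited table. They are the identifiers whose symbol is in a list of such genes, which was drawn up with earlier results of these data known, and each symbol matched a single identifier. They are 18 Wnt ligands, 2 genes for ligand processing, 10 Frizzled receptors, 5 co-receptors, 10 secreted antagonists and 4 TLE corepressors. RNA came from HCT-116, an established human colon carcinoma cell line, grown in serum-containing medium. The line had been infected to carry the PMSCV vector with GOLPH3 cDNA (HCT-116-PMSCV-GOLPH3) or without it (HCT-116-PMSCV-Vector), and puromycin selection is described for the former. The labels give every sample the same genotype, wild type, and the same treatment, the lysis reagent Trizol. Each arm was 1 stable line, and its 3 samples were taken from different generations, so p-values measure the spread between generations of a line and not between independently made lines.

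Wnt proteins are lipid-modified in the endoplasmic reticulum by PORCN, carried through the Golgi to the surface by WLS, and received by Frizzled proteins together with a co-receptor. With LRP5 or LRP6, the signal prevents destruction of β-catenin, which then replaces TLE corepressors on TCF and LEF factors at target genes. With ROR1, ROR2 or RYK, ligands such as WNT5A signal without β-catenin. Secreted proteins of the SFRP, DKK and WIF families hold the ligands or the co-receptors back. HCT-116 cells carry an activating mutation of the β-catenin gene, and renewal of the colon epithelium depends on this pathway.

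The libraries held 15708846 to 21900764 recovered reads. A value is called normalized reads here, which is a read count divided by a size factor of its library, without correction for gene length. A gene without reads could have had up to 3 reads, which a library's size factor turns into 2.47 to 3.29 normalized reads. Such limits cover counting error only. Where a gene is said to be at least some fold lower, the mean of the Vector-labelled libraries was divided by 3.22. That is the highest such limit among the GOLPH3-labelled libraries, and a single Vector-labelled library can give a smaller fold. The GOLPH3 transcript, which checks the labels, had 1630, 1272 and 1383 normalized reads in the GOLPH3-labelled libraries and 1968, 1892 and 1472 in the Vector-labelled ones. It was thus not higher in the GOLPH3-labelled libraries (log2 fold change -0.31, adjusted p = 0.609), and both groups are named by their labels. In the epithelial marker list KRT8, KRT18 and EPCAM were abundant in both groups, while KRT20 was at 0 reads in every library and CDX1 had at most 1 read in any library.

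The largest differences were of genes that were on in the Vector-labelled libraries and silent in the GOLPH3-labelled ones. SFRP1, TLE4, WNT5A and FZD10 had at most 1 read in every library labelled GOLPH3, and FZD8 was also lower. WIF1 and DKK3 were lower at a low level, and WNT7B was the member that was higher. Of 42 members that could be tested, these 8 passed an adjusted p of 0.05, with 1 higher and 7 lower, against 5.07% of all 26536 genes tested, 0.953% higher and 4.12% lower. The test was limma on log2(normalized reads + 1) with Benjamini-Hochberg adjustment over all genes tested, on genes that reached 1 normalized read in 3 or more libraries. Of the 42, 5 members (WNT5A, FZD10, SFRP1, WIF1 and TLE4) passed this filter through the libraries labelled Vector alone, so those had to differ. The other 7 of the 49 (WNT1, WNT2, WNT9B, SFRP2, SFRP4, DKK2 and DKK4) did not reach 1 normalized read in 3 libraries and were not tested, and no library held more than 3 reads of any of them.

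The median log2 fold change of the tested members was -0.05, beside 0.02 over all genes tested, with 19 members positive and 22 negative. Under a more lenient rule, which asked for an unadjusted p below 0.05 and a log2 fold change beyond 1 in either direction, 16 members passed, against 14.2% of all genes tested. Of these 2 were higher and 14 lower, beside 5.93% and 8.3% of all genes. Groups did not overlap in 18 tested members, 5 higher and 13 lower, beside 9.2% and 12.8% of all genes tested. At most 3 reads in every GOLPH3-labelled library, with more than 3 in a Vector-labelled one, were found for 5 members (WNT5A, FZD10, SFRP1, WIF1 and TLE4), and for 7.84% of all genes tested. In bulk RNA, fewer cells of a type and less RNA per cell cannot be told apart.

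**Figure D1:**
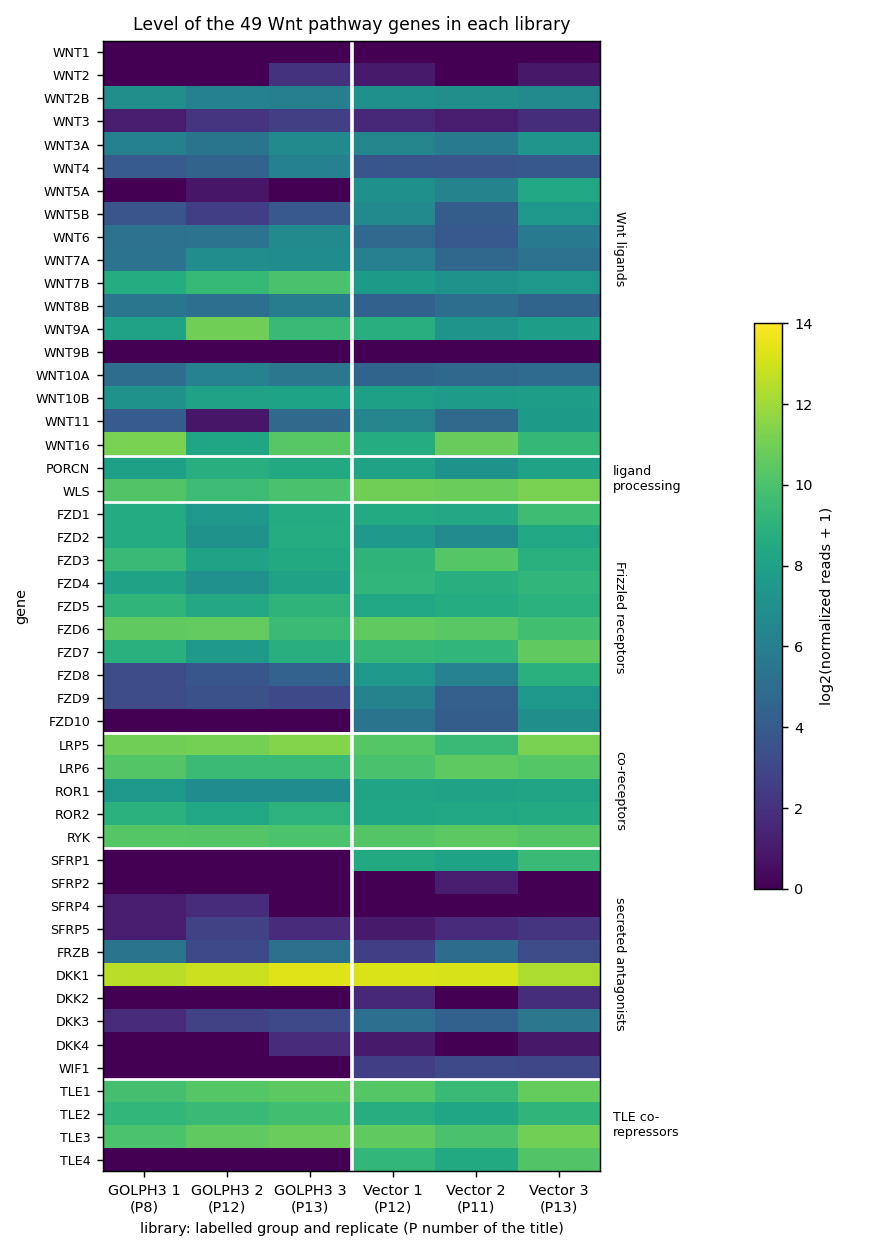
Level of each of the 49 genes (rows, by class) in each of the 6 libraries (columns, with the P number of the title), as log2(normalized reads + 1) on a colour scale from 0 to 14. WNT5A, FZD10, SFRP1, WIF1 and TLE4 are dark in the 3 libraries labelled GOLPH3 and not in the 3 labelled Vector, while DKK1 is the brightest row in both groups.

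RefSeq promoter windows on GRCh38.p14, from 250 bases before to 50 bases after a gene start, were found for 36 of the 49 members, in 45 windows. Sequences are shown for FZD8 and TLE4, which were lower in the GOLPH3-labelled libraries, and for WNT16 and LRP5, which had the highest mean level per kilobase of their classes in both groups, so that their base composition can be compared. They are the bases before the start that lie upstream of every exon in GENCODE 29, from the window farthest upstream. Capitals mark letters of 4 motifs on either strand, namely the TCF/LEF core (CTTTGA or TCAAAG), an E-box of the type that ZEB factors bind (CACCTG or CAGGTG), the GC box (GGGCGG or CCGCCC) and the TATA box (TATAAA or TTTATA). The positions are chr10:35642297-35642546 (FZD8, minus strand), chr9:79571715-79571772 (TLE4, plus strand), chr7:121328750-121328999 (WNT16, plus strand) and chr11:68312341-68312590 (LRP5, plus strand), each written 5′ to 3′ in the direction of transcription.
FZD8: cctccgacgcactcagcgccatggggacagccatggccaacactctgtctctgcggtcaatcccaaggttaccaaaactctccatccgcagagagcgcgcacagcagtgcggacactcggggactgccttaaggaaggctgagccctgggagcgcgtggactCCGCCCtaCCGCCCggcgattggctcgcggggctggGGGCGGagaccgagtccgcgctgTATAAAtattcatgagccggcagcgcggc
TLE4: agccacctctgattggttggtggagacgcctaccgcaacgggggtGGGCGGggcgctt
WNT16: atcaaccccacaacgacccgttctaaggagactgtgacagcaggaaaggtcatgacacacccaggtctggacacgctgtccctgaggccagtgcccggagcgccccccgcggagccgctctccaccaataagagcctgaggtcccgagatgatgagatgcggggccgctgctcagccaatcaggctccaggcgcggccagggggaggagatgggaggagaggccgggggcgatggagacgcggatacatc
LRP5: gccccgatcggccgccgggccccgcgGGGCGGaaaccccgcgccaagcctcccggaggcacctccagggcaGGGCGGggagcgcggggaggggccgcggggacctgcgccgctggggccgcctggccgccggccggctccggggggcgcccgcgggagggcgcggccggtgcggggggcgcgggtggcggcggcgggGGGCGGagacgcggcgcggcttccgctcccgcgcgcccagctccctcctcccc

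In the bases shown, the GC box was found in FZD8 (3 matches), LRP5 (3 matches) and TLE4 (1 match, in 58 bases), and FZD8 also held a TATA box. WNT16 held none of the 4 motifs. CG dinucleotides numbered 9.6 per 100 bases in FZD8, 8.62 in TLE4, 6.8 in WNT16 and 17.2 in LRP5, so FZD8 and TLE4 lay between WNT16 and LRP5. The windows of WNT5A and WIF1, which were lower, and of DKK1, WLS and TLE1, which were abundant, had no bases upstream of exons and are not shown. The called members SFRP1, FZD10, DKK3 and WNT7B were among the 13 members without a window. Over whole windows the GC box was in 34 of the 45 windows of members, or 75.6%, beside 45% of all 35116 windows. The TCF/LEF core was in 8.89% of the windows of members and 12.9% of all windows. It was in both whole windows of TLE4, outside the 58 bases shown, and in windows of DKK1 and PORCN. The E-box was in 15.6% and 20.6%, and the TATA box in 8.89% and 11.5%, of the windows of members and of all windows. The median number of CG dinucleotides was 29 in the windows of members, from 4 to 53, and 14 over all windows. These matches are letters of a reference and hold no measure of binding or methylation in these cells.

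Among the ligands, WNT5A, which signals mainly without β-catenin, had the largest difference. WNT5A (ENSG00000114251, chromosome 3, 55465715 to 55490539 in the GENCODE 29 annotation of GRCh38, minus strand) had 0, 0.825 and 0 normalized reads in GOLPH3 replicates 1, 2 and 3 and 131.7, 74.5 and 318.4 in Vector replicates 1, 2 and 3. The groups were far apart, and Vector replicate 3 was the highest library. With 1 read in all in the GOLPH3-labelled libraries against 567 in the Vector-labelled ones, the ratio per size factor was 573-fold, with an exact 95% interval from 102 to 22666 that covers counting error only (fitted log2 fold change -6.91, adjusted p = 3.79e-05, limma). Without Vector replicate 3, which held 371 of those reads, the ratio was 320-fold (56.9 to 12722). The difference was past the threshold in all 16 alternative fits. These reuse the same libraries, and WNT5A passed the filter through those labelled Vector alone, so it had to differ.

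WNT5B, the close paralogue of WNT5A, had 11.8, 4.95 and 13.9 normalized reads in the GOLPH3-labelled libraries and 98.8, 16.4 and 177.6 in the Vector-labelled ones. The groups did not overlap, but Vector replicate 2 lay close to the libraries labelled GOLPH3. Its log2 fold change of -2.70 (95% confidence interval -4.42 to -0.98) did not pass the threshold (adjusted p = 0.0768, limma). WNT11, another ligand known for β-catenin-independent signalling, had 16.1, 0.825 and 27.8 normalized reads against 81.3, 27.4 and 195.7. Its groups overlapped at GOLPH3 replicate 3 and Vector replicate 2 (log2 fold change -3.00, adjusted p = 0.113, limma).

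WNT7B, a ligand of β-catenin signalling in many epithelia, was the member that rose. WNT7B (ENSG00000188064, chromosome 22, 45920362 to 45977129, minus strand) had 412.2, 669.6 and 1013 normalized reads in the GOLPH3-labelled libraries and 194.5, 144.6 and 173.4 in the Vector-labelled ones. Every library labelled GOLPH3 was above every library labelled Vector, and the former varied more. The means were 698.3 ± 301.4 and 170.8 ± 25.1 (SD, n = 3), a log2 fold change of 1.94 (standard error 0.37, adjusted p = 0.00745, limma). The call was lost without GOLPH3 replicate 2 (1.92, adjusted p = 0.0501) or without GOLPH3 replicate 3 (1.63, adjusted p = 0.0533).

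WNT4 had 15.03, 20.6 and 70.4 normalized reads in the GOLPH3-labelled libraries and 12.3, 12.1 and 13.7 in the Vector-labelled ones, without overlap. The lead rested on GOLPH3 replicate 3, since the log2 fold change was 1.09 with all libraries and 0.44 without it (adjusted p = 0.409 and 0.868, limma). WNT9A had 266.2, 2000 and 702.4 normalized reads against 441.6, 153.4 and 231.7. GOLPH3 replicate 1 fell within the range of the libraries labelled Vector, and the log2 fold change of 1.52 missed the threshold (adjusted p = 0.218, limma).

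Of the other ligands tested, WNT6, WNT7A, WNT8B and WNT10A had log2 fold changes between 0.87 and 1.00, and WNT8B and WNT10A did so without overlap of the groups. None of these 4 passed the threshold (adjusted p from 0.388 to 0.469, limma). WNT2B, WNT3, WNT3A and WNT10B had values between -0.49 and 0.43 with overlapping groups. Of 15 ligands tested, 9 thus had a positive and 6 a negative fold change, with a median of 0.43 on the log2 scale.

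The ligand with the highest mean level per length was WNT16, at 405.9 normalized reads per kilobase of exon in the GOLPH3-labelled libraries and 284.6 in the Vector-labelled ones. It made up 39.9% and 43.4% of the summed level per kilobase of the 18 ligands, but 24.7% without GOLPH3 replicate 1 and 26.9% without Vector replicate 2. The share ran from 9.59% (GOLPH3 replicate 2, where WNT9A, WNT7B and WNT10B were above WNT16) to 69.9% (GOLPH3 replicate 1). In normalized reads WNT16 had 2336, 294.4 and 1341 in the GOLPH3-labelled libraries and 409.7, 1734 and 640.2 in the Vector-labelled ones. The libraries differed far more within a group than the group means did (log2 fold change 0.34, adjusted p = 0.844, limma). Sample titles end in P with a number, whose meaning the labels do not state, and WNT16 was lowest in the P12 library of both groups. The P12 library was the lowest of both groups in 5 tested members (WNT8B, WNT16, FZD5, FRZB and ROR2) and the highest of both in 3 (WNT7A, WNT9A and FZD6), beside 11.5% and 14.05% of all genes tested.

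After WNT16, the ligands with the highest mean level per kilobase were WNT9A, WNT7B and WNT10B in the GOLPH3-labelled libraries (249.2, 138.2 and 86.6) and WNT10B, WNT9A and WNT11 in the Vector-labelled ones (87.1, 69.4 and 42.3). The place of WNT9A rested on GOLPH3 replicate 2, without which it had 122 and WNT7B 141.1 per kilobase. That of WNT11 rested on Vector replicate 3, without which WNT7B, at 33.6, took its place. WNT10B barely differed between groups, with 227.6 ± 74.4 and 228.9 ± 24.3 normalized reads (SD, n = 3). The summed level of the 18 ligands per kilobase was 941.3 to 1089 in the GOLPH3-labelled libraries and 533.3 to 770.1 in the Vector-labelled ones. These ranges did not overlap, but single genes carried much of the sum in some libraries. WNT16 made up 69.9% of it in GOLPH3 replicate 1 and 69.05% in Vector replicate 2, and WNT9A 53.5% in GOLPH3 replicate 2. No test was applied to the sum, and it does not describe the ligands as a class.

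**Figure D2:**
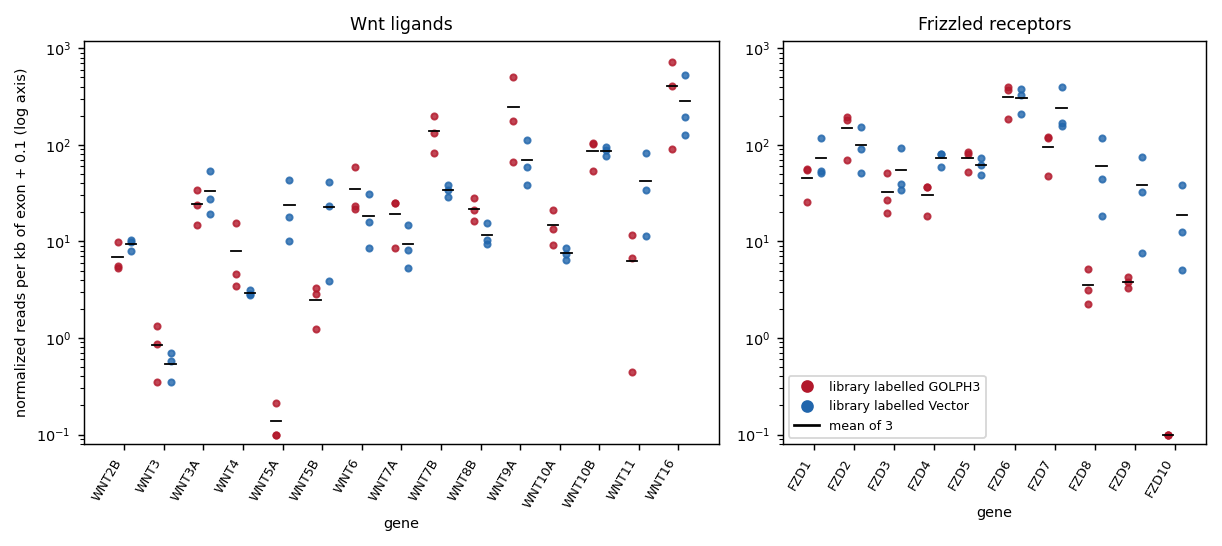
Normalized reads per kilobase of exon, plus 0.1, on a log axis, for the 15 ligands tested and the 10 Frizzled receptors. Each point is a library and each short line the mean of the 3 libraries of a group. WNT5A and FZD10 lie at the bottom of the axis in the GOLPH3-labelled libraries, WNT7B is higher there, and WNT16 and FZD6 have the highest means of their class in both groups.

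Some ligand genes are neighbours. WNT9A and WNT3A lie 59.2 kilobases apart on chromosome 1, WNT10B and WNT1 lie 6.69 kilobases apart on chromosome 12, WNT6 and WNT10A 6.13 kilobases apart on chromosome 2, and WNT3 and WNT9B 46 bases apart on chromosome 17. In the pair on chromosome 12, WNT10B had 141.7 to 272.2 normalized reads over the 6 libraries and WNT1 had 0 reads in every library. In the pair on chromosome 17, WNT9B likewise had 0 reads in every library and WNT3 had 1.07 to 5.34 normalized reads. WNT6 had 58.8 ± 36 and 31.1 ± 19.4 normalized reads in the groups labelled GOLPH3 and Vector, and WNT10A had 49.9 ± 21 and 25.3 ± 3.78 (SD, n = 3), with no call for either.

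WLS, which ferries lipid-modified Wnts from the Golgi to the plasma membrane, had 1180, 785.0 and 1018 normalized reads in the GOLPH3-labelled libraries and 2023, 1819 and 2299 in the Vector-labelled ones. The groups did not overlap, and the spread within each was small beside the distance between them. The log2 fold change of -1.05 (95% confidence interval -1.66 to -0.44) fell just short of the threshold (adjusted p = 0.0529, limma), with a range from 8.9e-08 to 0.205 over the alternatives. PORCN, the acyltransferase that attaches the lipid, had 244.7, 449.4 and 364.0 normalized reads against 264.5, 147.9 and 266.9, with overlap (log2 fold change 0.64, adjusted p = 0.409, limma).

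Of the 10 Frizzled receptors, FZD8 and FZD10 were lower in the GOLPH3-labelled libraries, and the other 8 did not pass the threshold. Over all genes tested, 4.12% were called lower. FZD10 (ENSG00000111432, chromosome 12, 130162459 to 130165740, plus strand) had 0 reads in all 3 libraries labelled GOLPH3 and 41.2, 16.4 and 126.2 normalized reads in the Vector-labelled ones. It was on at different levels in all libraries labelled Vector, with replicate 2 the lowest. By the mean of the Vector-labelled libraries against the floor of 3 reads in a library, it was at least 19.0-fold lower (adjusted p = 0.000649, limma). That mean rested largely on Vector replicate 3, and Vector replicate 2 lay much nearer the floor.

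FZD8 (ENSG00000177283, chromosome 10, 35638249 to 35642278, minus strand) had 8.59, 12.4 and 20.3 normalized reads in the GOLPH3-labelled libraries and 178.1, 73.4 and 476.3 in the Vector-labelled ones. It was low in the former but not silent, and the groups did not overlap. The log2 fold change was -3.73 (SE 0.64, adjusted p = 0.00356, limma). Both FZD8 and FZD10 were past the threshold in all 16 alternative fits, but FZD10 passed the filter through the libraries labelled Vector alone.

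FZD9, FZD4 and FZD7 had lower values in every library labelled GOLPH3 than in any labelled Vector without passing the threshold. FZD9 had 8.59, 9.90 and 7.47 normalized reads against 75.1, 17.5 and 176.8, a log2 fold change of -2.72 (adjusted p = 0.0564, limma). For FZD4 the values were 267.3, 134.4 and 270.1 against 591.8, 433.8 and 595.6, and -1.32 (adjusted p = 0.057, limma). FZD4 shares 1399 exonic bases with PRSS23 on the opposite strand, and whether the counting used strand is not stated. FZD7, a receptor prominent in intestinal stem cells, had 467.0, 184.7 and 459.0 normalized reads against 643.3, 602.5 and 1537. Its log2 fold change of -1.30 was farther from the threshold (adjusted p = 0.141, limma), and Vector replicate 3 stood well above the other libraries.

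FZD6 had the highest mean level per kilobase of the Frizzled receptors in both groups, and was the highest in 4 of 6 libraries. In the P13 libraries FZD2 was above it in the group labelled GOLPH3 (195.1 and 185.7) and FZD7 in that labelled Vector (398.3 and 211.3). It had 1509, 1599 and 754.7 normalized reads in the GOLPH3-labelled libraries and 1555, 1350 and 859.0 in the Vector-labelled ones, and in each group the P13 library was the lowest. The log2 fold change was 0.00 (95% confidence interval -0.78 to 0.79, adjusted p = 0.998, limma). FZD1, FZD2, FZD3 and FZD5 had log2 fold changes from -0.74 to 0.59 with overlapping groups. Per kilobase FZD6 made up 42.2% of the summed Frizzled level in the GOLPH3-labelled libraries and 30.0% in the Vector-labelled ones. The receptor with the next highest level was FZD2 in the former (149.1 normalized reads per kilobase) and FZD7 in the latter (240.4). The median log2 fold change of the 10 receptors was -1.02.

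None of the co-receptors passed the threshold with limma. ROR1, a tyrosine kinase-like receptor for WNT5A, had 177.1, 109.7 and 113.2 normalized reads in the GOLPH3-labelled libraries and 292.3, 268.4 and 292.6 in the Vector-labelled ones. The libraries labelled Vector were close to each other and all above those labelled GOLPH3, and the log2 fold change was -1.12 (95% confidence interval -1.86 to -0.38, adjusted p = 0.0888, limma, and 0.038 with DESeq2). Its relative ROR2 had 486.3, 332.3 and 528.4 normalized reads against 294.4, 323.2 and 372.5, with overlap and a log2 fold change of 0.42 (adjusted p = 0.537, limma).

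LRP5, which with LRP6 is the co-receptor of β-catenin signalling, had the highest mean level per kilobase of this class in both groups, and was the highest in 5 of 6 libraries. In Vector replicate 2, RYK (178.9) and LRP6 (144.3) were above LRP5 (115.5). It had 2026, 2119 and 2706 normalized reads in the GOLPH3-labelled libraries and 1281, 712.1 and 2311 in the Vector-labelled ones. Vector replicate 3 fell among the libraries labelled GOLPH3 (log2 fold change 0.82, adjusted p = 0.303, limma). LRP6 and RYK had log2 fold changes of -0.51 and -0.14 with overlapping groups. The means of RYK were 1176 ± 104 and 1294 ± 128 normalized reads (SD, n = 3).

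**Figure D3:**
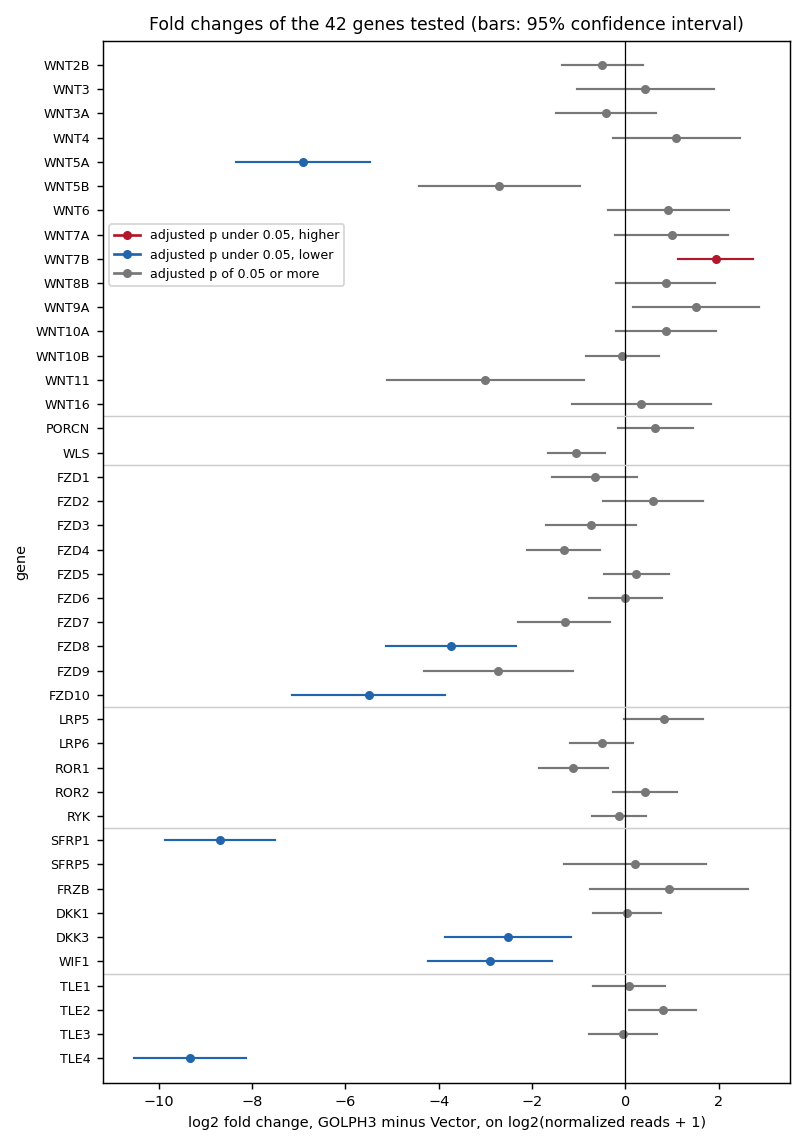
Log2 fold change of the 42 genes tested, libraries labelled GOLPH3 minus those labelled Vector, on log2(normalized reads + 1), with the 95% confidence interval from limma as a bar and grey lines between classes. The 7 genes called lower (blue) include TLE4 at -9.33 and SFRP1 at -8.70, and WNT7B at 1.94 is the gene called higher (red).

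Of 10 secreted antagonists, 4 never exceeded 3 reads and could not be tested. Among the 6 tested, 3 were lower and none higher, beside 4.12% and 0.953% of all genes tested. Of these 3, SFRP1 and WIF1 passed the filter through the libraries labelled Vector alone, so they had to differ. SFRP1, which binds Wnt ligands through a Frizzled-like domain and is often silenced in colon tumours, was the clearest of the 3. SFRP1 (ENSG00000104332, chromosome 8, 41261958 to 41309497, minus strand) had 0 reads in all 3 libraries labelled GOLPH3 and 367.5, 281.5 and 683.1 normalized reads in the Vector-labelled ones. It was abundant in each library labelled Vector and undetected in each labelled GOLPH3, at least 138-fold lower (adjusted p = 2.47e-06, limma).

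WIF1, which also binds Wnts outside the cell, had 0 reads in each GOLPH3-labelled library and 5.15, 7.67 and 6.87 normalized reads in the Vector-labelled ones. These were only 5 to 8 reads a library, which allows no more than a statement of at least 2.04-fold lower (adjusted p = 0.0151, limma). Its call was lost without GOLPH3 replicate 2 (adjusted p = 0.058), GOLPH3 replicate 3 (0.0621) or Vector replicate 3 (0.0577), and in the libraries whose P number occurs in both groups (0.0727). It passed in 10 of the 14 alternative fits that tested it. The edgeR fit and the fit that asked for a mean of at least 10 normalized reads left it out. DKK3, a divergent member of the DKK family whose role in Wnt signalling is less settled, had 2.15, 5.77 and 7.47 normalized reads against 34.0, 19.7 and 46.3. The groups were apart, with a log2 fold change of -2.52 (standard error 0.62, adjusted p = 0.0353, limma), but the call was lost in 10 of 16 alternative fits. These included every fit without a library of the labelled GOLPH3 group (adjusted p from 0.0619 to 0.0954) and those without Vector replicate 1 or 3 (0.134 and 0.153).

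DKK1, which blocks LRP5 and LRP6 and is itself a target of β-catenin, dominated the class. It had 6076, 7440 and 10092 normalized reads in the GOLPH3-labelled libraries and 9556, 9007 and 5003 in the Vector-labelled ones. The groups overlapped fully, with means of 7869 ± 2042 and 7855 ± 2485 (SD, n = 3), a log2 fold change of 0.03 and a 95% confidence interval from -0.70 to 0.76. Per kilobase DKK1 made up 99.7% of the summed level of the 10 antagonists in the GOLPH3-labelled libraries and 97.0% in the Vector-labelled ones, where SFRP1 made up another 2.54%. FRZB had 7.42 to 40.8 normalized reads against 5.15 to 29.6, and SFRP5 at most 5.77 in any library, and neither passed the threshold.

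Of the 4 TLE corepressors, which bind TCF and LEF factors and repress their targets, TLE4 was silent in the GOLPH3-labelled libraries. TLE4 (ENSG00000106829, chromosome 9, 79571773 to 79726882, plus strand) had 0 reads in all 3 of them and 625.8, 362.6 and 1165 normalized reads in the Vector-labelled ones. It was at least 223-fold lower (adjusted p = 2.18e-06, limma), the largest difference among the members by the fit and by the bound. SFRP1 and TLE4 were past the threshold in all 16 alternative fits, which reuse the same libraries. Both passed the filter through the libraries labelled Vector alone, so they had to differ. The neighbouring AL353813.1 shares 253 exonic bases with TLE4 on the same strand.

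TLE1, TLE2 and TLE3 were abundant in every library. TLE1 had the highest level per kilobase of the class in all 6 libraries and 927.5, 1261 and 1444 normalized reads in the GOLPH3-labelled libraries against 1256, 680.3 and 1684 in the Vector-labelled ones. The groups overlapped, with a log2 fold change of 0.08 (adjusted p = 0.937, limma). TLE2 had 607.6, 700.1 and 871.1 normalized reads against 419.9, 294.7 and 567.3, without overlap, but its log2 fold change of 0.80 missed the threshold (adjusted p = 0.222, limma). TLE3 had means of 1489 ± 393 and 1557 ± 534 normalized reads (SD, n = 3). Per kilobase, the summed level of the class was 424.1 to 656.3 in the GOLPH3-labelled libraries and 337.1 to 791.7 in the Vector-labelled ones.

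Of the 7 members called lower, 6 had the same order of the libraries labelled Vector, with replicate 3 above replicate 1 and replicate 1 above replicate 2. WIF1 was the exception. The same order was found in 61.9% of the 1093 genes called lower and in 25.1% of all genes tested. In replicate 2 these 6 members had 13.03% (FZD10) to 42.5% (DKK3) of their level in replicate 3, and in replicate 1 they had 32.6% (FZD10) to 73.3% (DKK3).

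Genes of several marker lists also differed between the groups. In a list of 10 genes named HEK293-like, of which IRS4, UCHL1, HOXD13 and HAND1 were already known to move, 7 were lower and none higher. Of all genes tested, 4.12% were called lower and 0.953% higher. PAX2 of this list had overlapping groups, with means of 125.5 and 113.4 normalized reads (log2 fold change 0.17, adjusted p = 0.853, limma). INA had at most 2 reads in any library and was not tested. The summed level of the list was 157.5 to 238.3 normalized reads in the GOLPH3-labelled libraries and 3574 to 11703 in the Vector-labelled ones. In the latter, replicates 1 and 2 had 45.1% and 30.5% of the level of replicate 3. IRS4, UCHL1, NEFM, LHX1, HOXD13 and HAND1 were at 0 reads in every library labelled GOLPH3, and LHX1 had at most 3 reads in any library.

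In a mesenchymal list of 11 genes VIM, CDH2 and ZEB1 were lower, the sum being 1588 to 1993 against 3817 to 6625 normalized reads, while DCN was at 0 in every library and COL1A2 had at most 2 reads. VIM alone had 5.37 to 41.2 against 1653 to 3407 normalized reads. COL1A1 and THY1 of the same list lay higher without overlap (log2 fold changes 0.91 and 1.57, adjusted p = 0.151 and 0.196, limma), and PDGFRB had a log2 fold change of 1.33 with overlap. In an epithelial list of 12 genes KRT18 and KRT19 were higher, the sum being 62851 to 134422 against 30025 to 41156 normalized reads. That sum rested largely on KRT8, KRT18 and KRT19. CDX2 had the lower mean in the GOLPH3-labelled libraries, 288.6 against 498.6 normalized reads, with overlap (log2 fold change -0.52, adjusted p = 0.636, limma). CDH17, VIL1, LGALS4 and CEACAM5 had at most 10 reads in any library. Of the leukocyte markers, CD3E was at 0 in every library and PTPRC had at most 1 read in any library. None of 5 endothelial genes was called (24.7 to 44.0 against 23.7 to 34.3). The part of these marker differences in the Wnt genes was not tested, nor was the kind of cell they came from.

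**Figure D4:**
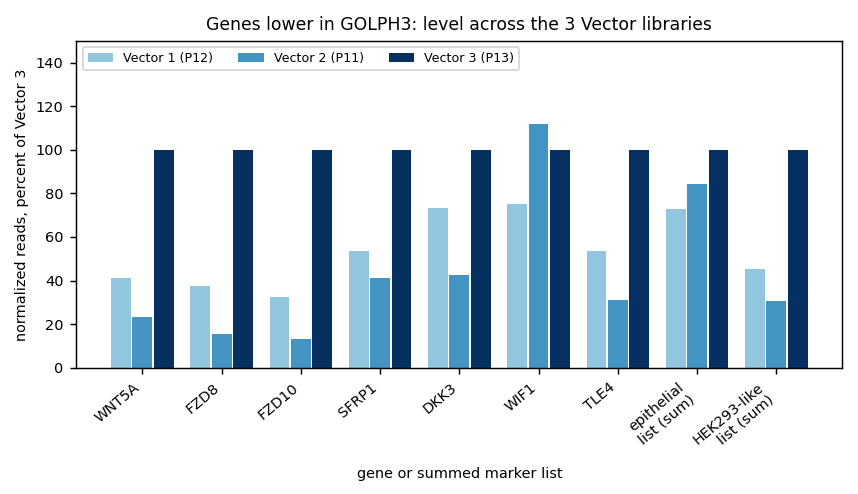
Normalized reads of the 7 members called lower, and of the summed epithelial and HEK293-like marker lists, in the 3 libraries labelled Vector as a percentage of Vector replicate 3 (bars from 0). For 6 of the 7 members and the HEK293-like list the order is replicate 3, 1, 2, and for WIF1 replicate 2 is the highest at 112%.

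The called members were compared between libraries with the same P number. Their groups did not overlap, so any GOLPH3-labelled library against any Vector-labelled one had to give the same direction. The log2 differences for P12 and for P13 were -9.29 and -10.19 for TLE4, -8.53 and -9.42 for SFRP1, and -6.18 and -8.32 for WNT5A. They were -5.40 and -6.99 for FZD10, -3.74 and -4.49 for FZD8, and 1.78 and 2.54 for WNT7B. DKK3 and WIF1 had -2.37 and -2.48 and -2.62 and -2.98. Each pair is 1 library against 1, so these values have no test.

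Of 73 other genes of the pathway in hand-written lists, 68 were tested. Of these, 6 passed the threshold (8.82%, beside 5.07% of all genes tested), all lower in the GOLPH3-labelled libraries. LEF1 and APCDD1, 2 of these 6, passed the filter through the libraries labelled Vector alone, so they had to differ. LEF1, a DNA-binding partner of β-catenin to which TLE proteins also bind, had 0 reads in all 3 libraries labelled GOLPH3 and 385.0, 140.2 and 452.3 normalized reads in the Vector-labelled ones, at least 101.2-fold lower (adjusted p = 5.8e-06, limma). PYGO1, which with BCL9 helps β-catenin to activate transcription, had 18.2, 11.5 and 1.07 against 110.1, 71.2 and 128.7 normalized reads (adjusted p = 0.0123, limma). The other 11 nuclear genes did not pass.

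LGR5, an R-spondin receptor and marker of intestinal stem cells, had 2.15, 4.12 and 1.07 normalized reads against 99.8, 38.3 and 68.7 (log2 fold change -4.34, adjusted p = 0.000832, limma). APCDD1, a membrane inhibitor of Wnt, had 0 reads in the GOLPH3-labelled libraries and 25.7, 2.19 and 51.5 normalized reads in the Vector-labelled ones, so that Vector replicate 2 was itself under the floor of 3 reads (adjusted p = 0.0243, limma). Of 20 extracellular regulators these 2 passed among 16 tested (12.5%, beside 5.07% of all genes tested). VANGL2 and DAAM2 passed among 11 genes of planar cell polarity (18.2%), the branch that orients cells without β-catenin. Their log2 fold changes were -2.24 and -3.95 (adjusted p = 0.00293 and 0.00355, limma). Of the 28 cytoplasmic components tested none passed, and 4 (14.3%, beside 14.2% of all genes tested) met the more lenient rule, 2 in each direction. CTNNB1, which encodes β-catenin, had 7084, 4966 and 5763 normalized reads in the GOLPH3-labelled libraries and 5966, 7660 and 7117 in the Vector-labelled ones, with overlap (log2 fold change -0.23, adjusted p = 0.727, limma). The median log2 fold change of the 68 genes was -0.03.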

How the data were processed

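Members and gene lists were chosen with earlier results of these data known. Per the labels, the submitters' processing notes name fastp 0.20.0, HISAT2 2.1.0, Cufflinks, featureCounts 1.6.1, DESeq2 and the build GRCh38, with no role or order. The deposited table gives 1 signal per gene for each library. Nonzero values of a library were whole multiples (within 0.05) of its own step in 100.00% of cases, so the authors divided read counts by a size factor. Reads were recovered by that step. Where an identifier had another row (44 cases), both were summed. Coordinates and exon lengths came from GENCODE 29, which holds 96.4% of the identifiers.

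limma 3.58.1 in R 4.3.3 with a mean-dependent prior variance was applied to log2(value + 1) of genes that reached 1 in 3 or more libraries, 3 against 3 libraries without covariates. edgeR 4.0.16 and DESeq2 1.42.0 were run on the recovered reads as alternatives, edgeR calling 1113 of 16908 genes. Fits that left out libraries kept the genes tested with all libraries. Scripts were tested on simulated data. No 2 libraries of a group agreed within sampling noise (chi-square per degree of freedom at least 65.3). Values in every library are given for members with an adjusted p under 0.05, members with groups that do not overlap, an absolute log2 fold change over 1 and a group mean of at least 10, the most abundant member of each class per kilobase, and WNT11, WNT9A, PORCN, ROR2 and TLE2, which, like CTNNB1, were picked with their values in view. The result of 1 marker gene is not reported here.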

Additional observations from a re-analysis of the deposited data

How the results depend on the processing

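Of 49 members, 8 were called with all libraries, and the count stayed within 1.5 times of that under quantile normalization, a common sum of reads, both other filters, a pseudocount of 0.1, edgeR, the replicate block, an adjusted p under 0.01 and the libraries with a P number in both groups. A similar count did not mean the same genes. Of the 8 members, 6 were also called in the libraries with a P number in both groups. With quantile normalization, either other filter, the pseudocount of 0.1, edgeR or the replicate block, 7 of them were. DESeq2 called 14 members and 10 of the other pathway genes, where 6 had been called. The P number as a block, which leaves 1 residual degree of freedom per gene, called 21 members, 33 other pathway genes and 6082 of all genes, where 1346 had been called. An adjusted p under 0.01 left 775 of all genes. Leaving out each library in turn, on the same genes, gave 5 to 10 members, 4 to 9 other pathway genes and 804 to 1431 of all genes. The lowest member counts were 5 without GOLPH3 replicate 2 and 5 without GOLPH3 replicate 3. For all genes the lowest were 804 without Vector replicate 3, 825 without GOLPH3 replicate 3, 871 without Vector replicate 1 and 874 without GOLPH3 replicate 2. The cause of these changes was not tested.

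Among members that were not called, WNT5B passed in 6, FZD4 in 5, FZD7 in 1, FZD9 in 7, ROR1 in 2 and WLS in 6 of 16 alternative fits. Fold changes near 0 changed sign. FZD6 had log2 fold changes of -0.02 with quantile normalization, -0.12 with a common sum of reads and -0.07 both with the P number as a block and in the libraries with a P number in both groups. DKK1 had -0.14 and -0.09 under the first pair of these settings, and TLE1 had -0.04 with a common sum of reads and -0.11 under both P settings. With each library left out, FZD6 ranged from -0.25 to 0.35, DKK1 from -0.27 to 0.20, TLE1 from -0.29 to 0.37 and WNT16 from -0.29 to 1.2. The common sum of reads moved the median over all genes from 0.02 to -0.10, so changes there are relative to that shift.

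Deviations of same-numbered libraries from their group means correlated at -0.23, -0.15 and 0.26 across genes. Those of libraries with the same P number correlated at 0.26 for P12 and 0.26 for P13, the latter being the same pair as replicate 3. Those of the P8 and P11 libraries correlated at 0.33. With 3 libraries per group such deviations are linked, so these correlations cannot settle whether the libraries were paired. With the replicate number as a block, 10 members, 6 other pathway genes and 1081 of all genes were called. The values without a library for WNT16 and WNT9A among the ligands, and for the read ratio of WNT5A, were added after seeing the data. Depth limits the 7 untested members and WIF1, whose levels lie near 3 reads.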
